A study of Mus musculus with 19 samples.

Results

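Expression of 10 basement membrane genes was followed in cultured hepatic stellate cells (HSCs). They were chosen by name, as chains of collagen IV (Col4a1, Col4a2), of laminin (Lama2, Lamb1, Lamb2, Lamc1), and as the proteins that tie these networks together (Nid1, Nid2, Hspg2, Col18a1). All 10 were found by Ensembl identifier among the 55487 identifiers of the count table, and all 10 passed the filter on low counts that left 15138 genes.

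A basement membrane is a thin sheet of extracellular matrix in which a collagen IV network and a laminin network are joined by nidogens and by perlecan. In the healthy liver the sinusoids lack a continuous basement membrane, although its components are present in the space of Disse, where HSCs reside between endothelium and hepatocytes. In fibrosis this space fills with matrix, and HSCs are known as a source of both interstitial collagens and basement membrane proteins.

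HSCs were sorted by the ultraviolet fluorescence of their vitamin A from livers of healthy male Balb/c mice aged 23 to 24 weeks and without genetic modification or injury. They were either lysed after sorting (0 h, 2 samples) or kept on collagen-coated plastic in DMEM with 10% fetal bovine serum for 3, 6, 12, 18 or 96 h (3 samples each) or 24 h (2 samples). RNASeq read the 3′ ends of transcripts, and each sample pools 2 technical repeats. The labels number the samples 1 to 3 and give an isolation date. At 0 h there are numbers 2 and 3 and at 24 h numbers 1 and 2, and numbers 1 and 3 share a date. What the number stands for is not said in the labels, and it is called the replicate number here. The collagen coat and the serum were common to all cultures. By the methods of the study the 0 h cells were collected without culturing, although their labels name the same 10% medium. Plating, medium and time in culture therefore cannot be told apart in any comparison with 0 h.

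The 19 samples held 2073171 to 7690892 counts. The labelled cell type had its defining markers at 0 h, where 11 HSC genes summed to 31134 and 36296 CPM (counts relative to the TMM-scaled library total) with Dcn the highest and at least 10 detected. Their sum fell to between 2641 and 3044 CPM at 96 h. There 9 of 11 genes were called lower against 0 h, and 10.9% of all genes were called in either direction. Hepatocyte markers, led by Alb, summed to 3597 and 7667 CPM at 0 h and to at most 88.0 CPM at 96 h. Markers of Kupffer cells and leukocytes, led by Cd5l, went from between 304 and 322 to between 10.0 and 23.2 CPM. Those of portal fibroblasts and mesothelium, led by Eln, went from between 63.3 and 81.5 to at most 12.0 CPM, and those of cholangiocytes, led by Spp1, stayed at or under 6.06 CPM.

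Sinusoidal endothelial cells also make basement membrane proteins, and 10 markers of them were followed, led by Ptprb, of which at least 8 had a count at 0 h and at least 3 at 96 h. Their summed level was 828 to 1154 CPM at 0 h, 1114 to 3386 CPM at 3 h, 164 to 744 CPM at 12 h and 10.3 to 226 CPM at 96 h. In culture replicate 1 held the highest sum at every timepoint. Lyve1 had no count in either 0 h sample and Stab2 none at 96 h. The part of this cell type in the changes below was not tested, and values with replicates 2 and 3 only are given where they alter a call. In bulk RNA, fewer cells of a type and less RNA per cell cannot be told apart.

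**Figure D1:**
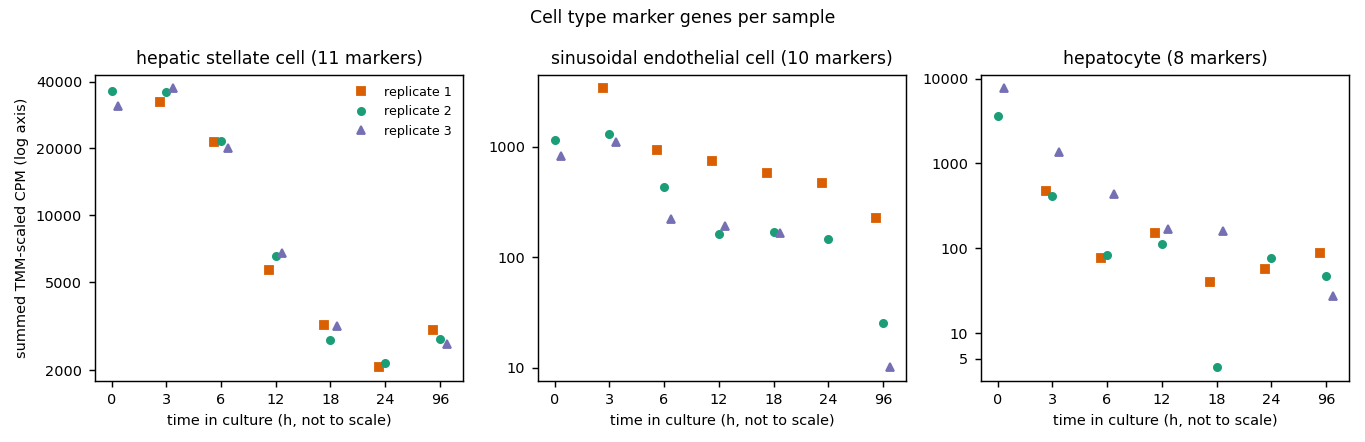
Summed TMM-scaled CPM of marker genes (vertical log axis) against time in culture in hours (horizontal axis, not to scale) for HSCs, sinusoidal endothelial cells and hepatocytes; each point is 1 sample, coloured by replicate number. All 3 sums were lower at 96 h than at 0 h, and replicate 1 held the highest endothelial sum at each timepoint in culture.

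The genes for the collagen IV chains lie head to head, and their shared start is shown because both were the members that rose. Col4a1 (chr8:11198423-11312826, minus strand, GRCm38) and Col4a2 (chr8:11312805-11449287, plus strand) overlap by 22 bases at their 5′ ends. Their 3′ ends, where the reads were taken, are far apart, and no other gene with counts covers them. The promoter windows below (RefSeq, GRCm38.p6, 250 bases before to 50 after the start, each 5′ to 3′ on its gene's strand) span chr8:11312777-11313076 and chr8:11312555-11312854. Capitals mark the 78 bases found in both windows, which read as reverse complements of each other:
Col4a1: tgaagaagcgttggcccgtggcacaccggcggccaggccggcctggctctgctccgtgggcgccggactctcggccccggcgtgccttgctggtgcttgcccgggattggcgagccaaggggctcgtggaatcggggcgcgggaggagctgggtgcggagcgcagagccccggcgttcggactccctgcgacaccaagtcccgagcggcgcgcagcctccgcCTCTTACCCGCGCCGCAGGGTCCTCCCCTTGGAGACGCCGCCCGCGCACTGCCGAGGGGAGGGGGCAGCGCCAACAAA
Col4a2: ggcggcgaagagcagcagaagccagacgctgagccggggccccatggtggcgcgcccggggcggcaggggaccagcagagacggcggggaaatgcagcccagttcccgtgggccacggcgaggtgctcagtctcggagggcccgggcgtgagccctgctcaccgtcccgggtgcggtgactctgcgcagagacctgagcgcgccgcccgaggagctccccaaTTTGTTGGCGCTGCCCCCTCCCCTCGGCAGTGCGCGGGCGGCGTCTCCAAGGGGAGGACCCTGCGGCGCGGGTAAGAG
GC made up 74.0% of the Col4a1 window and 73.7% of the Col4a2 window, against a median of 52.7% over 32851 mouse promoter windows of the same length.

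Hspg2 and Nid1 were called lower at 12 h and higher again at 96 h, as was Col18a1 at low counts. The windows of Hspg2 and Nid1 (chr4:137468553-137468852 and chr13:13437352-13437651, both plus strand) are shown for comparison. Capitals mark GGGCGG (the GC box), CCAAT and GGAATG, the core of sites bound by TEAD factors, searched on both strands:
Hspg2: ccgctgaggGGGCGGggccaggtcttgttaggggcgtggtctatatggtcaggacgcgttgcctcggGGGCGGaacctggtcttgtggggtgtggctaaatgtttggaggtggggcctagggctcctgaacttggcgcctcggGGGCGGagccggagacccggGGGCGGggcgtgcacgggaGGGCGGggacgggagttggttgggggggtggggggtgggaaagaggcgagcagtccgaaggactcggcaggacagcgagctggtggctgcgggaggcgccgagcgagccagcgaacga
Nid1: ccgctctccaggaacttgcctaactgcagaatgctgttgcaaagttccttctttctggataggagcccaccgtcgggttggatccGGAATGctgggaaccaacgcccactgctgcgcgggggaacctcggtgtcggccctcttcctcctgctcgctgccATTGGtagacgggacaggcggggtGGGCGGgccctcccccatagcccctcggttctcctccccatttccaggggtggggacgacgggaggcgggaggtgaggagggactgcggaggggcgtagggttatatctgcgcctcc
The Hspg2 window held GGGCGG 5 times. Windows were found for 8 of the 10 members, 9 in all because Col18a1 has more than one start. Lamc1 and Nid2 had no entry. GGGCGG was in 7 of the 9 windows, against 35.7% of all windows, and CCAAT in 5, against 37.4%. The only GGGCGG of the Col4a1 window lies in the bases shared with the Col4a2 window, so that this site is counted in both. GGAATG was in 2 of the 9, against 14.7% of all, TATAAA in 0, against 13.6%, and TGANTCA (the AP-1 motif) in 0, against 7.81%. These counts describe letters in a window.

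**Figure D2:**
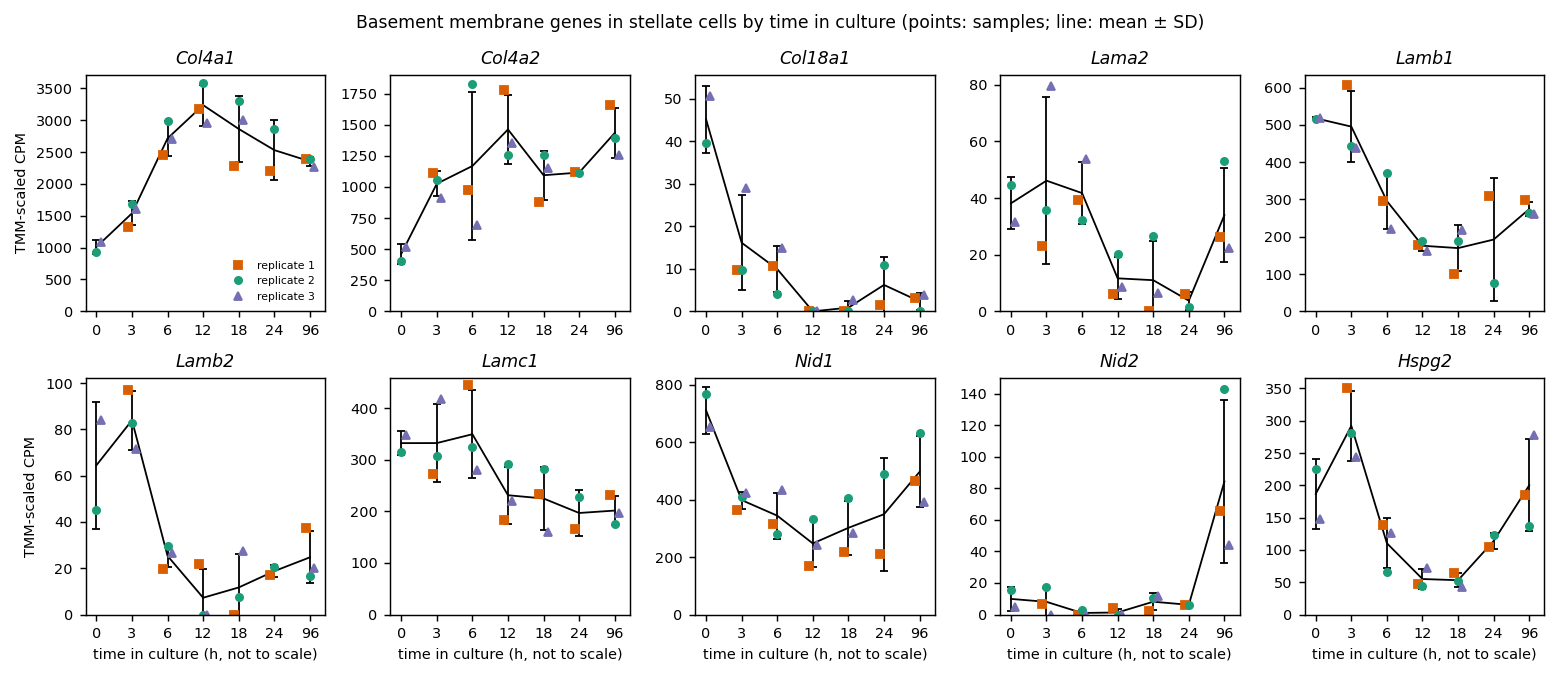
TMM-scaled CPM of each of the 10 basement membrane genes (vertical axis, linear, from 0, scaled per gene) against time in culture in hours (horizontal axis, not to scale); points are samples by replicate number and the line joins means with SD (n = 2 at 0 and 24 h, otherwise 3). Col4a1 and Col4a2 were higher in culture than at 0 h, whereas Lamb1, Nid1 and Hspg2 reached low levels around 12 h to 18 h.

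To find when the basement membrane genes changed, each timepoint in culture was compared with the same 2 samples at 0 h in one edgeR fit of all samples. A gene counts as called here where its change exceeded 2-fold with an adjusted p under 0.1. At 12 h Col4a1 and Col4a2 were higher, and Lamb1, Nid1, Hspg2 and Col18a1 lower. These 6 of 10 members compare with 17.7% of all genes tested (8.6% higher and 9.1% lower). At 18 h the same 6 genes were called in the same directions, against 15.9% of all genes. At 96 h the 2 collagen IV chains were the only members called, against 10.9% of all genes. The median log2 fold change of the members was -1.63 at 12 h and -0.34 at 96 h, and that of all genes 0.00 and 0.07.

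**Figure D3:**
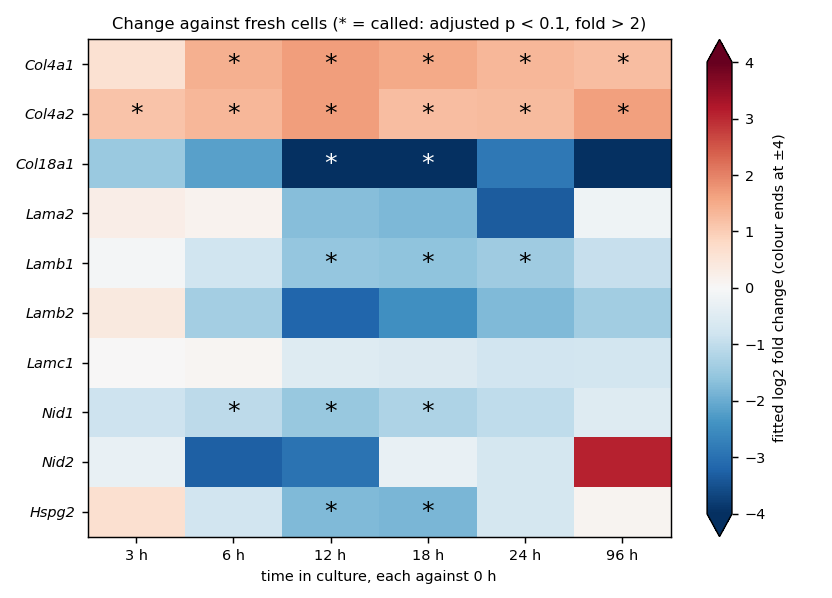
Fitted log2 fold change (colour, red higher and blue lower, ending at 4 in each direction) of the 10 members (rows) at each timepoint against 0 h (columns), with asterisks on called changes. Col4a1 was called from 6 h and Col4a2 from 3 h, whereas Lamb1, Nid1, Hspg2 and Col18a1 were called lower at 12 h and 18 h and not at 96 h.

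Col4a1 encodes the α1 chain of collagen IV, which joins with the α2 chain into the common form of the molecule. Its level was 929 and 1093 CPM at 0 h, 1329, 1601 and 1687 CPM at 3 h, and 2448, 2702 and 2994 CPM at 6 h. It was 2950, 3177 and 3582 CPM at 12 h, 2287 to 3306 CPM at 18 h, 2197 and 2864 CPM at 24 h, and 2273, 2391 and 2398 CPM at 96 h. The samples at 0, 3 and 6 h formed 3 separate ranges that stood in the order of time, and from 6 h onwards every sample was above every sample at 3 h. Relative to 0 h the log2 fold change was 0.61 ± 0.18 (SE) at 3 h, which passed the adjusted p (0.068, edgeR) but not the fold. It was 1.43 ± 0.18 at 6 h (adjusted p = 8.37e-05, edgeR) and 1.68 ± 0.18 at 12 h (adjusted p = 1.05e-05), and still 1.22 ± 0.18 at 96 h (adjusted p = 0.000286). Within replicates 2 and 3 the difference between 12 h and 0 h was 1.95 and 1.43. Col4a1 stayed called from 6 h to 96 h under each alternative processing and with any single sample left out. From 12 h to 96 h it went down by less than the fold required (log2 -0.46 ± 0.16, adjusted p = 0.073, edgeR), with the ranges of those timepoints apart.

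Col4a2 encodes the partner chain. It was measured at 406 and 518 CPM at 0 h, 915, 1054 and 1109 CPM at 3 h, and 695, 979 and 1831 CPM at 6 h. Later values were 1255, 1356 and 1776 CPM at 12 h, 877 to 1256 CPM at 18 h, 1110 and 1121 CPM at 24 h, and 1255, 1393 and 1656 CPM at 96 h. Every sample in culture was above both samples at 0 h, and the timepoints from 6 h to 18 h overlapped one another. Col4a2 was the only member called at 3 h (log2 1.15 ± 0.31, adjusted p = 0.047, edgeR), where 5.58% of all genes were called. That call was lost without the 0 h sample of replicate 2 (adjusted p = 0.35) or 3 (0.134), without the 3 h sample of replicate 1 (0.13) or 2 (0.12), and with replicates 2 and 3 only (0.211). The fold at 12 h (log2 1.66 ± 0.32, adjusted p = 0.002, edgeR) and at 96 h (log2 1.63 ± 0.32, adjusted p = 0.003) was called under each alternative.

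At 6, 18 and 24 h Col4a2 was also called higher, at a log2 fold change of 1.34, 1.24 and 1.27. These calls did not hold under every alternative. Without the 0 h sample of replicate 2, which left 1 sample at 0 h, none held, at a log2 fold change of 1.18, 1.01 and 1.08. At 6 h, leaving out replicate 2, which held the 1831 CPM, gave a log2 fold change of 0.81. With only the 2 groups compared the 6 h call was also lost (log2 1.44, adjusted p = 0.123, edgeR). At 24 h, leaving out replicate 1 or 2 left 1 sample, and the call was lost at a log2 fold change of 1.27 or 1.28. With replicates 2 and 3 only, which also left 1 sample at 24 h, that call was lost at 1.27.

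The counts of Col4a1 per count of Col4a2 were compared over time, since the chains are assembled together. The ratio was 2.20 ± 0.13 (SD, n = 2) at 0 h, 1.52 ± 0.29 at 3 h (n = 3), 2.27 ± 0.54 at 12 h and 1.66 ± 0.19 at 96 h. Its spread within timepoints ran from an SD of 0.0147 at 18 h to 1.14 at 6 h. Over the 19 samples the log2 CPM of both genes had a Pearson r of 0.73, given as a description because the samples share libraries and timepoints. For Col4a2, Col4a1 was number 102 in likeness among 15137 genes, and for Col4a1, Col4a2 was number 536.

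Laminins are trimers of an α, a β and a γ chain. Lamb1 (chr12:31265234-31329644) encodes the β1 chain and was the only laminin member called. It was at 516 and 520 CPM at 0 h, 437, 443 and 606 CPM at 3 h, 221, 296 and 371 CPM at 6 h, and 162, 177 and 189 CPM at 12 h. At 18 h it was 101, 189 and 219 CPM, at 24 h 75.5 and 310 CPM, and at 96 h 262, 264 and 297 CPM. No sample from 6 h onwards reached the levels of 0 h, and the 96 h samples lay above all those at 12 h. The log2 fold change was -1.56 ± 0.42 at 12 h (adjusted p = 0.018, edgeR) and -1.61 ± 0.42 at 18 h (adjusted p = 0.017), both called under each alternative. At 24 h it was -1.43 ± 0.47 (adjusted p = 0.084, edgeR). That call was lost with the replicate block (adjusted p = 0.1), under scaling by library size (0.162) and with only the 2 groups compared (0.304). Without the 0 h sample of replicate 2 or 3, which left 1 sample at 0 h, it was lost at a log2 fold change of -1.45 or -1.42. Without the 24 h sample of replicate 2, which left 1 sample at 24 h, it was lost at -0.74. Without the 24 h sample of replicate 1 the change was -2.78 (adjusted p = 0.001, edgeR), so that the 24 h samples differ. The change from 12 h to 96 h was 0.64 ± 0.38 (adjusted p = 0.299, edgeR). With replicates 2 and 3 only, which left 1 sample at 24 h, the log2 fold change of Lamb1 from 24 h to 96 h was 1.79.

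Lamc1 (chr1:153218922-153332786), the γ1 chain shared by most laminins, was not called in any comparison. It measured 316 and 348 CPM at 0 h, 272 to 418 CPM at 3 h, 183, 219 and 292 CPM at 12 h, and 176, 197 and 231 CPM at 96 h. All 3 samples at 96 h were below both at 0 h, at a log2 fold change of -0.72 ± 0.28 (adjusted p = 0.144, edgeR).

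Lama2 (chr10:26980036-27619758), the α2 chain known from muscle basement membranes, and Lamb2 (chr9:108479736-108490530), the β2 chain, were measured with few counts and were not called. Lama2 was at 31.6 and 44.6 CPM at 0 h, 6.25, 8.54 and 20.2 CPM at 12 h, 1.54 and 6.01 CPM at 24 h, and 22.4, 26.4 and 53.1 CPM at 96 h. Its 0 h and 12 h ranges did not overlap and its 0 h and 96 h ranges did, at a log2 fold change of -1.71 ± 1.19 and -0.17 ± 1.20. Lamb2 was at 45.1 and 83.9 CPM at 0 h, 71.7 to 97.2 CPM at 3 h and 19.9 to 29.4 CPM at 6 h. It had 0 counts in 2 of 3 samples at 12 h and 21.8 CPM in the other, and 16.6 to 37.6 CPM at 96 h. Its fitted change at 12 h was -3.16 ± 1.72 (adjusted p = 0.244, edgeR), so that a change of this size was not detectable with this spread. The 21.8 CPM were in replicate 1. Without that 12 h sample Lamb2 was called lower at 12 h (adjusted p = 0.002, edgeR), and so it was with replicates 2 and 3 only (0.000634), where it was also called lower from 6 h to 12 h (0.012) and higher from 12 h to 18 h (0.036) and to 96 h (0.002).

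Nid1 (chr13:13437551-13512269) encodes nidogen-1, which binds both laminin and collagen IV. It was at 653 and 768 CPM at 0 h, 365, 408 and 422 CPM at 3 h, 282, 317 and 434 CPM at 6 h, and 167, 242 and 333 CPM at 12 h. It reached 217 to 404 CPM at 18 h, 210 and 489 CPM at 24 h, and 392, 465 and 633 CPM at 96 h. All cultured samples were below both samples at 0 h, and all 96 h samples were above all 12 h samples. It was called lower at 12 h (log2 -1.52 ± 0.35, adjusted p = 0.007, edgeR) under each alternative. At 18 h the change was -1.24 ± 0.35 (adjusted p = 0.029, edgeR). This call was lost under scaling by library size (log2 -0.996, under the fold required). It was lost as well without the 18 h sample of replicate 1 (adjusted p = 0.105, edgeR). Without the 0 h sample of replicate 2, which left 1 sample at 0 h, it was lost at a log2 fold change of -1.18.

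At 6 h, where Nid1 was the only member called lower and 11.3% of all genes were called, the log2 fold change was -1.05 ± 0.35 (adjusted p = 0.080, edgeR). With the replicate block it was -0.86 and with the isolation date as a covariate -0.93, both under the fold required. The call was lost as well under scaling by library size (log2 -0.98) and with only the 2 groups compared (-0.94). It was lost without the 6 h sample of replicate 1 (adjusted p = 0.184, edgeR) or 2 (0.172), and with replicates 2 and 3 only (log2 -0.99, adjusted p = 0.119). Without the 0 h sample of replicate 2 or 3, which left 1 sample at 0 h, it was lost at -0.94 or -1.19. By 96 h Nid1 differed from 0 h by -0.52 ± 0.35 on the log2 scale (adjusted p = 0.426, edgeR).

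Hspg2 (chr4:137468769-137570630) encodes perlecan, a large heparan sulfate proteoglycan that holds growth factors in the matrix. Its level was 149 and 225 CPM at 0 h, 244, 281 and 351 CPM at 3 h, 66.2, 126 and 139 CPM at 6 h, and 44.9, 47.5 and 72.5 CPM at 12 h. It was 43.2, 52.1 and 64.1 CPM at 18 h, 105 and 123 CPM at 24 h, and 138, 185 and 278 CPM at 96 h. Every sample at 3 h was above both at 0 h, every sample from 6 h to 24 h was below both, and the 96 h samples spanned the 0 h range. Relative to 0 h it changed by 0.64 ± 0.36 at 3 h (adjusted p = 0.432, edgeR), -1.76 ± 0.35 at 12 h (adjusted p = 0.003), -1.81 ± 0.35 at 18 h (adjusted p = 0.002) and 0.10 ± 0.36 at 96 h (adjusted p = 0.953). The calls at 12 h and 18 h held under each alternative.

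Col18a1 (chr10:77052178-77166548, minus strand) encodes collagen XVIII, a proteoglycan core protein whose cleaved end is endostatin. It was at 39.6 and 50.7 CPM at 0 h, 9.62, 9.83 and 29 CPM at 3 h, 4.18, 10.7 and 15 CPM at 6 h, and had 0 counts in each sample at 12 h. It remained low, with 0 counts in 2 samples and 2.61 CPM in the other at 18 h, 1.5 and 10.9 CPM at 24 h, and 0, 3.15 and 3.87 CPM at 96 h. No cultured sample reached either 0 h sample. Against a floor of 3 counts per library, the level at 12 h was at least 84.5-fold lower than at 0 h (adjusted p = 0.010, edgeR), a call that held under each alternative. The 18 h call (adjusted p = 0.091, edgeR) was lost without the filter on low counts (0.101) and with only the 2 groups compared (0.158). It was lost with replicates 2 and 3 only (0.305) and without the 18 h sample of replicate 1 or 2 (0.181 for each). Without the 0 h sample of replicate 2 or 3, which left 1 sample at 0 h, it was lost at a log2 fold change of -5.85 or -5.49. Without replicate 3, the remaining 18 h samples were all at 0 counts (adjusted p = 0.019). Slc19a1 overlaps the 3′ end of Col18a1 on the opposite strand and ran the other way, at a mean of 16 CPM at 0 h, 97.9 CPM at 12 h and 12.9 CPM at 96 h. Since the strand setting of the counting is not given in the sources used here, how reads in the overlap were assigned was not tested.

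Nid2 (chr14:19751265-19811787) encodes nidogen-2. It was at 4.52 and 15.3 CPM at 0 h and at 17.5 CPM or less in every sample up to 24 h, with 0 counts in 2 of 3 samples at 6 h and at 12 h. It was not called at 12 h against 0 h, except when the 12 h sample of replicate 1 was left out (adjusted p = 0.060, edgeR). At 96 h it was 44.3, 65.7 and 143 CPM, above every earlier sample. Against 0 h the log2 fold change at 96 h was 3.08 ± 2.22 (adjusted p = 0.457, edgeR), and within replicates 2 and 3 it was 3.19 and 3.18. Rtraf covers the 3′ end of Nid2 on the opposite strand and had a mean of 127 CPM at 0 h, 81.4 CPM at 12 h and 183 CPM at 96 h.

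To see which changes took place within culture, successive timepoints were compared in the same fit of all samples, in which the 0 h samples bear only on the shared spread, the filter and the scaling. From 3 h to 6 h Hspg2 was the only member called (log2 -1.40 ± 0.32, adjusted p = 0.023, edgeR), where 4.49% of all genes were called. Its 3 h and 6 h ranges did not overlap. Summed endothelial markers fell over the same interval, from 1114 to 3386 CPM to 221 to 948 CPM, and with replicates 2 and 3 only, the adjusted p of Hspg2 was 0.235 at a log2 fold change of -1.45. Col4a1 went up by 0.82 ± 0.16 in this step (adjusted p = 0.007), under the fold required.

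No member was called from 6 h to 12 h, 12 h to 18 h, 18 h to 24 h or 24 h to 96 h by edgeR, where 1.84%, 0.225%, 0.0396% and 2.72% of all genes were called. At an unadjusted p below 0.05 these steps held 3, 1, 1 and 2 members, against 12.7%, 8.59%, 6.78% and 11.2% of all genes. DESeq2 called 2, 0, 0 and 1 members, against 5.71%, 2.8%, 1.51% and 5.58% of all genes. At 24 h against 0 h, where 9.51% of all genes were called, Col4a1, Col4a2 and Lamb1 were the members called.

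Between 12 h and 96 h, 4 of 10 members were called higher and 0 lower, against 6.96% and 6.57% of all genes (13.5% in all). The median log2 fold change was 1.27 for the members and 0.09 for all genes. Hspg2 rose by 1.86 ± 0.33 (adjusted p = 0.001, edgeR) under each alternative, and by 1.95, 1.61 and 1.93 within replicates 1, 2 and 3. The summed endothelial markers were lower at 96 h than at 12 h within replicates 1, 2 and 3, and their part in the Hspg2 change was not tested.

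Nid1 rose by 1.00 ± 0.32 from 12 h to 96 h (adjusted p = 0.058, edgeR), and by 1.47, 0.93 and 0.70 within replicates 1, 2 and 3. This call was lost without the 12 h sample of replicate 1 (adjusted p = 0.184) or 3 (0.146), without the 96 h sample of replicate 2 (0.19), and with replicates 2 and 3 only (0.191). It was also lost with only the 2 groups compared. The Nid2 change of 6.02 ± 2.18 (adjusted p = 0.094) was lost with the replicate block (adjusted p = 0.106), with the isolation date as a covariate (0.127), and without the 12 h sample of replicate 2 or 3 or any 96 h sample (adjusted p = 0.136 to 0.213). Without the 12 h sample of replicate 1, the only one with Nid2 counts, it stayed called (adjusted p = 0.024). The Col18a1 call (adjusted p = 0.071) compares 34 counts in all at 96 h with 0 at 12 h, at least 4.38-fold higher, and was lost without any 12 h sample (adjusted p = 0.134 to 0.17) or the 96 h samples of replicates 1 (0.122) or 3 (0.142), and with replicates 2 and 3 only (0.276).

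**Figure D4:**
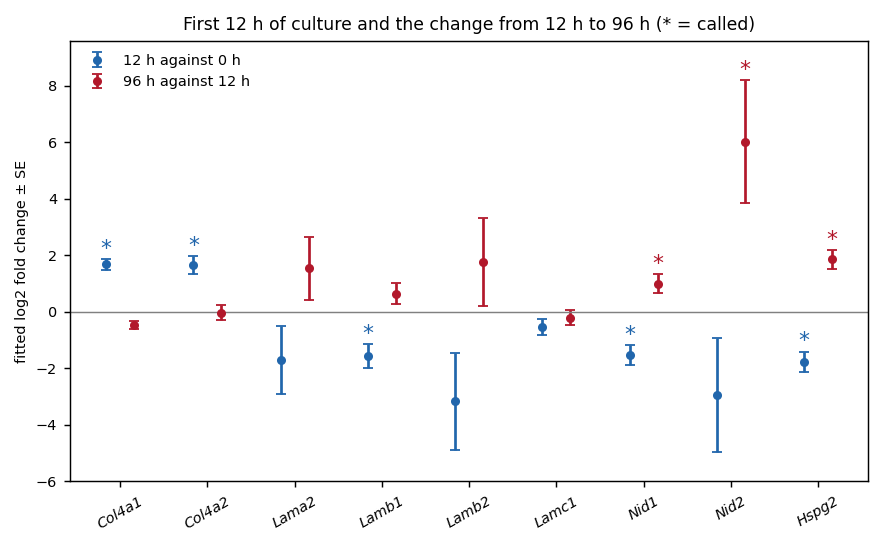
Fitted log2 fold change with SE (vertical axis) of 9 members (horizontal axis) from 0 h to 12 h in blue and from 12 h to 96 h in red, with asterisks on called changes; Col18a1, with 0 counts in each 12 h sample, is left out. Nid1 and Hspg2 were called in both steps in opposite directions, and Col4a1 and Col4a2 were called only in the step to 12 h.

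As a measure of the balance between collagen IV and the other members, CPM were summed per sample. Col4a1 and Col4a2 together went from 1473 ± 196 (SD, n = 2) at 0 h to 4699 ± 345 at 12 h (n = 3) and 3789 ± 260 at 96 h. The other 8 members together went from 1905 ± 91.2 to 730 ± 138 and 1318 ± 101. These sums moved in opposite directions over the first 12 h, and no 12 h sample overlapped the 0 h samples in either.

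The 8 interstitial collagen chains listed for comparison (of collagens I, III, V and VI) summed to 4411 ± 639 CPM at 0 h, 830 ± 209 CPM at 12 h and 3886 ± 136 CPM at 96 h. At 12 h 7 of 8 were called lower and 0 higher, against 9.1% and 8.6% of all genes, and their median change was -3.42 on the log2 scale. From 12 h to 96 h 6 of 8 were called higher, against 6.96% of all genes, and the median was 2.24. Against 0 h, Col1a1 and Col5a2 were called higher and Col3a1 and Col6a3 lower at 96 h, where 10.9% of all genes were called in either direction. The summed collagen IV level relative to the interstitial sum was 0.334 ± 0.00404 at 0 h, 6.00 ± 2.07 at 12 h and 0.977 ± 0.0957 at 96 h.

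**Figure D5:**
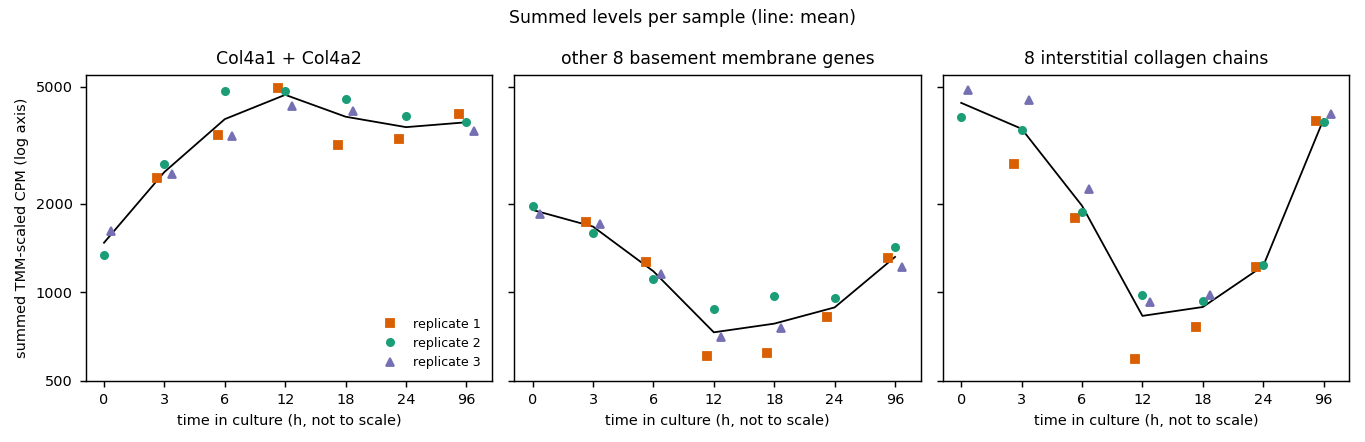
Summed TMM-scaled CPM per sample (vertical log axis) against time in culture in hours (horizontal axis, not to scale) for Col4a1 with Col4a2, for the other 8 members and for 8 interstitial collagen chains; points are samples by replicate number and the line joins means. The collagen IV sum was highest at 12 h, at 4699 CPM on average, where the other sums were at their lowest, 730 and 830 CPM.

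Further genes of the basement membrane were taken from a list of 28, of which 16 passed the filter. At 12 h against 0 h, 1 was called higher and 5 lower, compared with 8.6% and 9.1% of all genes. At 96 h against 0 h, 2 were higher and 6 lower, where 10.9% of all genes were called in either direction. Of the other laminin chains Lama1, the α1 chain, was the highest, with 177 and 189 CPM at 0 h, 136 to 166 CPM at 3 h, 29.1 to 73.1 CPM at 6 h and 0 counts in each sample at 12, 24 and 96 h. That is at least 343-fold lower at 12 h and 283-fold lower at 96 h. Of the other collagen chains Col4a5 had the highest mean over the timepoints, 3.28 CPM, which came from 96 h, with 16.7, 17.7 and 31.0 CPM there and at most 1.07 CPM in any earlier sample. It was not called at 96 h against 0 h (adjusted p = 0.139, edgeR).

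Among further linkers and associated proteins, Sparc, a collagen-binding protein, was the highest. It was at 3163 and 3379 CPM at 0 h, 1659 to 1828 CPM at 12 h and 6552 to 7300 CPM at 96 h, called higher at 96 h against both 0 h (log2 1.10 ± 0.15, adjusted p = 0.000221, edgeR) and 12 h (2.00 ± 0.14). Tinagl1, a secreted basement membrane protein, was 552 and 622 CPM at 0 h and 3218 to 4567 CPM at 96 h, a log2 fold change of 2.75 ± 0.32, and was also called at 6 h (1.25 ± 0.30) and 12 h (1.23 ± 0.30) but not at 18 h (0.56 ± 0.29) or 24 h (0.51 ± 0.32). Pxdn, the peroxidase that crosslinks collagen IV, was called lower at 12 h (-2.95 ± 0.45) and at 96 h (-1.77 ± 0.44), and higher from 12 h to 96 h (1.18 ± 0.41). Agrn, Frem1, Ntn1 and Smoc2 were lower at 96 h against 0 h, with Frem1 at 0 counts in each 96 h sample.

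Of 9 receptor genes tested, 2 were called lower at 12 h against 0 h, compared with 9.1% of all genes. At 96 h against 0 h 1 was called lower, where 10.9% of all genes were called in either direction. From 12 h to 96 h 1 was called higher, compared with 6.96% of all genes. Itgb1, the integrin β1 chain, had the highest mean. Its log2 fold change was 0.63 ± 0.19 at 12 h and 0.76 ± 0.19 at 96 h, past the adjusted p and under the fold. Dag1, the laminin-binding dystroglycan, was low at 12 h and higher again at 96 h. Its level was 402 and 469 CPM at 0 h, 49.4 to 69.0 CPM at 12 h and 295 to 375 CPM at 96 h, with a log2 fold change of -2.81 ± 0.25 at 12 h and 2.44 ± 0.24 from 12 h to 96 h. Itga1, the collagen-binding integrin α1 chain, was lower at 12 h (-2.60 ± 0.29) and at 96 h (-2.06 ± 0.29).

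Enzymes and chaperones of collagen synthesis (9 listed, 9 tested) were not called at 3 h or 6 h, where 5.58% and 11.3% of all genes were called. Serpinh1, the collagen chaperone HSP47 and the highest of them, and Plod2, a lysyl hydroxylase, were called higher at 12 h (log2 1.29 ± 0.29 and 1.61 ± 0.51), and Plod1 lower (-1.62 ± 0.59). At 12 h 8.6% of all genes were called higher and 9.1% lower. At 18 h and at 24 h 1 of the list was called higher and 1 lower, where 15.9% and 9.51% of all genes were called. At 96 h, Colgalt1, P4hb and Plod3 were called higher against 0 h (1.29, 1.55 and 1.45), and P4ha1, P4hb and Plod3 against 12 h (1.48, 1.34 and 1.48). Of all genes 10.9% were called in either direction at 96 h against 0 h, and 6.96% were called higher against 12 h. P4ha1 and P4hb form the prolyl 4-hydroxylase that stabilises the collagen helix.

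The genes most like each member over the 19 samples are given as a description, by Pearson r of log2 CPM. For Col4a1 these were Pno1 (0.97), Cald1 and Cct3, and for Col4a2 Sec61a1 (0.90), Abcf1 and Eef2. For Lamb1 they included Plscr4 and Bcr, and for Lama2 Ptger2 and Lgmn. They were for Lamb2 Rin2, Vstm4 and Slc50a1, and for Lamc1 Zeb2 (0.82), Arhgap42 and Mamdc2. For Nid1 they were Pgrmc1 (0.83), Calm2 and Ctdspl, for Nid2 Creb3, Akr7a5 and Gatad1, for Hspg2 Rnf10 (0.91), Stim1 and Macf1, and for Col18a1 Tbx20, Fam3a and Fgfr2. Within the members Col4a1 ran against Hspg2 (r = -0.73), Lamb1 (r = -0.71) and Col18a1 (r = -0.71). Lamb2 ran together with Col18a1, and Lama2 with Lamb1 (r = 0.73 for each pair).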

How the data were processed

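The data are RNASeq counts of sorted mouse HSCs kept in culture for 0 to 96 h. Per the labels and the methods, the authors mapped single-end reads of 3′ tag libraries with STAR to GRCm38.p6 and used StringTie. They deposited raw counts per gene and sample, without normalization. The tool, annotation release and strand setting behind the counts are not given in the sources used here. Since each transcript yields reads near its 3′ end, changes were tested within a gene. Sums and ratios over genes, and the highest gene of a list, use these counts without division by transcript length. All columns of the count table were used. Counts are mapped reads without molecular identifiers, and floors cover counting error only.

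Groups were taken from the labels. Nothing in the labels separates the 2 technical repeats. The methods of the study give 3 independent repeats per timepoint, whereas 0 h and 24 h have 2 samples here. The labels do not say whether the replicate numbers (M1 to M3) mark separate mice or isolations. The p-values therefore measure the spread between these samples. Positions come from the GRCm38 gene annotation and promoter windows from RefSeq. Symbols matched 55141 of 55487 identifiers.

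After filterByExpr at its defaults and TMM scaling, genes were compared by the quasi-likelihood F test of edgeR 4.0.16 (R 4.3.3), with time as the only factor in one fit of 19 samples. Adjusted p-values (Benjamini-Hochberg) run over all 15138 genes tested. The SE is the log2 fold change divided by the square root of F. CPM relate counts to the filtered, TMM-scaled library total. A level of 3 counts was taken as the floor. DESeq2 1.42.0, which the authors used downstream, served as an alternative. Likeness used log2 CPM with a prior count of 2. Python 3.11.15, pandas 2.3.3 and matplotlib 3.10.9 were used for values and plots.

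The replicate number is shared between timepoints, and same-numbered samples share an isolation date, from which the pairing was taken. Residuals correlated at 0.014 on average between samples of 1 number (51 pairs) and at -0.007 between numbers (103 pairs). Replicate 2 alone has its date, with 1 sample per timepoint, so that no comparison could be tested within that date, and 0 h has 1 sample per date. The number was used as a block and the date as a covariate among the alternatives.

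The members, the gene lists and the rule for named genes were chosen with earlier results of these data known. Named genes are all members, genes of the other basement membrane, receptor and collagen synthesis lists that were called at 96 h against 0 h or 12 h, the highest gene of each role or marker list, and the 3 genes most like each member, of which 1 gene is not reported here. Genes called at 12 h but at 96 h against neither 0 h nor 12 h (Plod1, Plod2) and genes of the interstitial list were named after their values were seen. The alternatives were library-size scaling, DESeq2, no filter, the block, the date, an adjusted p below 0.05, only the 2 groups compared, and single samples left out. An alternative with replicates 2 and 3 only was added after seeing that replicate 1 held the highest endothelial marker sum in culture.

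Data were simulated with 200 genes changed 4-fold, drawn only from genes above a set mean CPM. At 12 h against 0 h 93 (46.5%) were called with the right sign, with 4 false calls among 14250 genes. At 96 h against 12 h 102 (51.0%) were called with the right sign, with 2 false calls among 14227. These shares do not cover members with few counts such as Col18a1 and Nid2.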

Additional observations from a re-analysis of the deposited data

How the results depend on the processing

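Of 26 calls on members, 14 held under every alternative and 12 were lost under at least 1; none changed sign. Leaving out single samples, the number of members called was 0 to 1 at 3 h against 0 h, 1 to 3 at 6 h, 6 to 8 at 12 h, 3 to 6 at 18 h, 1 to 2 at 24 h and 2 at 96 h; it was 1 from 3 h to 6 h, 0 to 1 from 6 h to 12 h, 0 in the steps from 12 h to 18 h and from 18 h to 24 h, 0 to 1 from 24 h to 96 h, and 1 to 3 from 12 h to 96 h. Where at least 2 samples were left per group, 4.29% to 5.11% of all genes were called at 3 h against 0 h. The share was 9.59% to 11.1% at 6 h and 14% to 16.1% at 12 h. At 18 h it was 12.7% to 13.7% and at 96 h 8.63% to 9.22%. From 3 h on, the successive steps gave 3.22% to 4.44%, 0.998% to 1.92%, 0.153% to 0.419%, 0.0864% to 0.16% and 1.9% to 2.32%. From 12 h to 96 h it was 9.84% to 12.2%. Each fit at 24 h against 0 h left 1 sample in a group. Fitting only the groups compared gave 1 member at 6 h, 2 from 3 h to 6 h, 1 from 24 h to 96 h and 2 from 12 h to 96 h. Those fits called 13.6%, 8.59%, 5.27% and 21.7% of all genes. DESeq2 gave 5 at 24 h, 4 at 96 h, 2 from 6 h to 12 h and 1 from 24 h to 96 h, where it called 14.7%, 15.7%, 5.71% and 5.58% of all genes. Without the filter 1 member was called from 6 h to 12 h, against 1.04% of all genes. An adjusted p below 0.05 left 1 from 12 h to 96 h, against 9.9%. With replicates 2 and 3 only, an alternative chosen after seeing the data, 0 were called at 3 h and from 3 h to 6 h, against 2.9% and 1.37%. From 6 h to 12 h and from 12 h to 18 h 1 each was called, against 0.8% and 0.238%. Comparisons with 24 h, where this alternative left 1 sample, are not counted here. Why these counts differ was not tested.

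With the replicate number as a block, pairing samples of a number, the Nid1 call at 6 h, the Lamb1 call at 24 h and the Nid2 call from 12 h to 96 h were lost, and no other call on a member was lost. Under scaling by library size the median log2 fold change of all genes was 0.24 at 24 h and 0.22 at 96 h against 0 h, compared with 0.00 and 0.07 under TMM. The design has 2 samples at 0 h and a common biological coefficient of variation of 1.06, so that members with few counts (Lama2, Lamb2, Nid2, Col18a1) could be called only for large changes.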
